A study of Mus musculus with 96 samples.

Results

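The Polycomb complex genes described here are the 10 genes Ezh2, Ezh1, Eed, Suz12, Jarid2, Bmi1, Ring1, Rnf2, Cbx7 and Cbx8, taken by their symbols from a count table of 55487 genes. Each symbol had 1 gene in the table, and all 10 genes passed a filter of at least 10 counts in at least 10% of cells, which left 14463 genes. The cells were 96 daughter cells of 48 divisions of mouse horizontal basal cells (HBCs), the reserve stem cells of the olfactory epithelium (OE), and each daughter was sequenced alone with the identity of its sister noted. The HBCs were wild type and came from the OE of adult mice aged 6 to 8 weeks, dissected 2 days after an injection of methimazole, a drug that destroys the OE. They were grown in dishes coated with extracellular matrix, and the study moved them from Tropoelastin to Fibronectin so that they would attach and divide. There was thus 1 condition and no untreated control, and all cells share the injury and the culture. The labels do not say which mouse or dish a cell came from, so cells were not treated as replicates, and every value below describes these cells without a test.

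Polycomb proteins keep genes silent through histone marks and work in a pair of complexes. Polycomb repressive complex 2 (PRC2) methylates lysine 27 of histone H3, with EZH2 or its paralog EZH1 as the enzyme, EED as the subunit that reads the methyl mark, SUZ12 as the scaffold and JARID2 as an accessory subunit that helps bring the complex to chromatin. Polycomb repressive complex 1 (PRC1) attaches ubiquitin to histone H2A through RING1 or RNF2, with BMI1 as their partner, and CBX7 or CBX8 reads the methyl mark that PRC2 leaves. EZH2 is known as the enzyme of dividing cells and EZH1 as that of resting cells, and Ezh2 is a known target of the E2F factors that switch on genes for DNA replication. In basal cells of stratified epithelia, PRC2 is known for holding back differentiation genes and the cell cycle inhibitors of the INK4 locus. The question put to the data was how much of each complex the daughter cells carried as RNA, and how far sisters were alike in it.

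Promoters are shown for 3 PRC2 genes, because among the members Ezh2 and Suz12 had the highest and Ezh1 the lowest correlation with DNA replication genes across cells, as given below. The sequences are those of RefSeq on GRCm38.p6, read along the strand of the gene, and capitals mark letters of an E2F site. The letters searched on both strands were TTTCCCGC, TTTGGCGC, TTTCGCGC and TTTGCCGC, within 250 bases before and 50 after the annotated start. For Suz12 and Ezh1 the 250 bases before the start are given, and for Ezh2 the stretch is moved by 11 bases because its letters begin 4 bases after the start. The RefSeq starts differ in part from the ends of the gene coordinates given below. The promoters searched for Ezh2, Jarid2 and Cbx7 lie wholly within those coordinates, and other starts were not searched.
Ezh2, chr6:47595020-47595269, minus strand: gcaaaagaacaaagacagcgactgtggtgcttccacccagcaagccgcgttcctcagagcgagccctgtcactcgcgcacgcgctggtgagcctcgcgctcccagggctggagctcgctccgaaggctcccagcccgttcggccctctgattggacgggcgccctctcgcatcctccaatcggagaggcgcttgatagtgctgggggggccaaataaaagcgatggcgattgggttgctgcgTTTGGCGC
Suz12, chr11:79992856-79993105, plus strand: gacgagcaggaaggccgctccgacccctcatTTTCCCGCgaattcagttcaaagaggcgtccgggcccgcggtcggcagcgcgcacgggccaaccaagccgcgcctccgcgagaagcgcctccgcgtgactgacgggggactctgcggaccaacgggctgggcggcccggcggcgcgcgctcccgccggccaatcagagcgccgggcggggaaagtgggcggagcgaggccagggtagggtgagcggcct
Ezh1, chr11:101226464-101226713, minus strand: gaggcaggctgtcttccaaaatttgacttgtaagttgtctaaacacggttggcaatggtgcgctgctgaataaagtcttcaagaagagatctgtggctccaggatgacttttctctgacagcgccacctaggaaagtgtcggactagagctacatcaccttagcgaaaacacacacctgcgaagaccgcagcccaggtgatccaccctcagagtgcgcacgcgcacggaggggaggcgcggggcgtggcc
Among the 10 genes, which had 11 promoters in the table, Ezh2 and Suz12 were the 2 genes with these letters, against 2.26% of all 32851 promoters of that length. CCAAT was found in 6 of the 10 genes, Ezh2, Eed, Suz12, Jarid2, Cbx7 and Cbx8, and in 37.4% of all promoters. The letters TTTGAA or TTCGAA, the core of the CHR element of genes that peak in mitosis, were found in Eed, Suz12 and Cbx7 and in 19.2% of all promoters. None of the motifs overlapped another in the Ezh2, Suz12 and Ezh1 promoters. A match describes the letters and not the binding of a factor.

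The libraries held from 29454150 to 44849003 counts on genes (median 36152760), and 92 synthetic ERCC transcripts were added to every lysate in the same amount. The HBC markers Trp63, Krt5 and Krt14 were counted in every cell. Of 21 markers of other cells, Kit of globose basal cells, Cyp1a2 and Ermn of sustentacular cells and Cdh5 of endothelium were at 0 in all cells, and the summed TPM of each list had a median of at most 2.25, the value of the immune list. The immune list ranged from 0 to 358 TPM and that of olfactory sensory neurons from 0 to 72.5. A marker reached 10 counts in 57 cells for the immune list, in 16 for olfactory sensory neurons and in 9 for fibroblasts. This number was 7 for globose basal cells and precursors, 6 for endothelium and 5 for sustentacular cells. TPM is a value scaled for gene length and library size, used below wherever genes are compared with each other.

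The core of PRC2 was the most abundant part of the set. Ezh2 (chr6:47530139-47595341 on GRCm38, minus strand) had 57.3 ± 37.9 TPM (SD over 96 cells), with 0.0494 in the lowest cell, 46.3 at the median and 185 in the highest. Eed (chr7:89954654-89980983, minus strand) had 45.9 ± 36.5 TPM, with a lowest value of 0, a median of 42.5 and a highest of 204. Suz12 (chr11:79993106-80034123, plus strand) had 30.4 ± 17.3 TPM and ran from 0.481 through a median of 26.4 to 73.2. These 3 genes form the catalytic core, and their counts were high in most cells. The raw counts ran from 4 through a median of 2800.5 to 9346 for Ezh2, from 0 through 1610.5 to 7580 for Eed and from 43 through 2329.5 to 7366 for Suz12. Ezh2 and Suz12 were thus the members that had counts in all 96 cells.

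The other members of PRC2 were lower and far more uneven. Ezh1 (chr11:101191115-101226463, minus strand) had 12.5 ± 14.4 TPM, from 0 through a median of 7.60 to 66.4, and no counts in 7 cells. Jarid2 (chr13:44729474-44921643, plus strand) had 10.5 ± 10.2 TPM, from 0 through 7.20 to 33.9, and no counts in 5 cells. For both genes the SD was about as large as the mean, and the cells spread from none to levels above the median of Suz12.

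Of PRC1, the ubiquitin ligase Rnf2 (chr1:151458004-151500955, minus strand) was the most abundant member, at 19.8 ± 18.0 TPM with a median of 17.1 and up to 92.6 in single cells. Its paralog Ring1 (chr17:34020792-34024680, minus strand) had 4.50 ± 6.89 TPM with 1.12 at the median and up to 39.0. Bmi1 (chr2:18677018-18686629, plus strand), the partner of both, had 6.03 ± 7.16 TPM with 3.47 at the median and up to 27.7. The readers had an SD of TPM well above their mean. Cbx7 (chr15:79915807-79971119, minus strand) had 7.35 ± 11.8 TPM with 0.859 at the median and up to 68.3, and Cbx8 (chr11:119036305-119040969, minus strand) had 3.09 ± 5.69 TPM with 0 at the median and up to 19.7. All 5 genes of PRC1 had cells without a count, which were 3 for Rnf2, 14 for Bmi1, 29 for Cbx7, 38 for Ring1 and 58 for Cbx8.

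**Figure D1:**
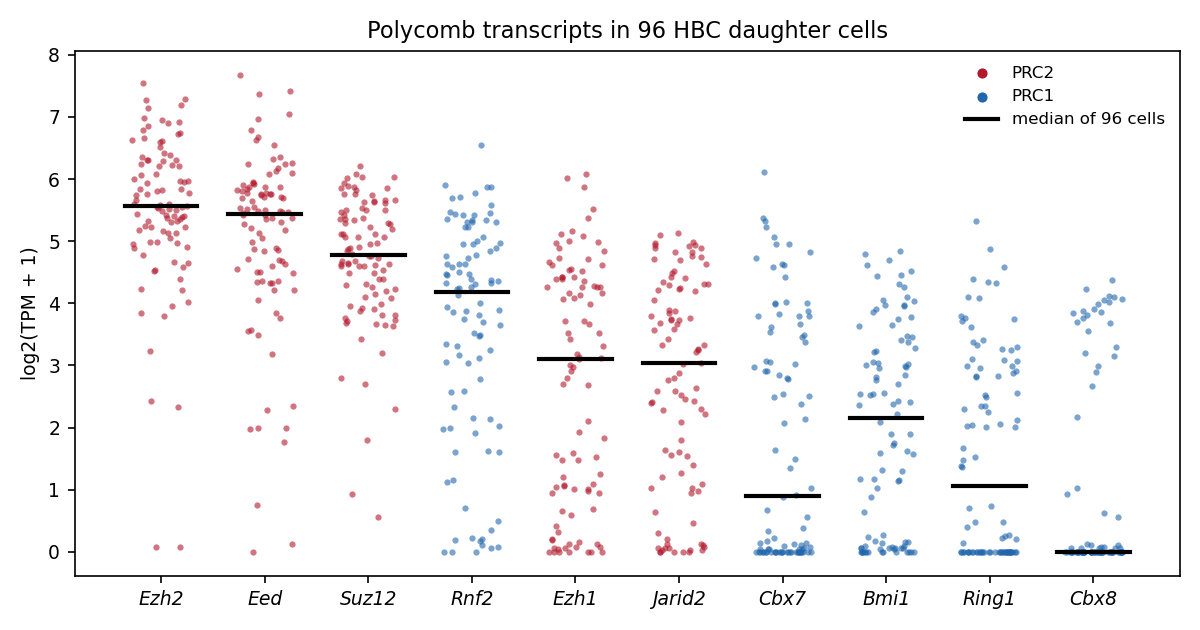
Each point is the level of a gene in 1 of 96 cells, as log2(TPM + 1), and black lines mark medians. Genes are ordered by mean TPM, with PRC2 members in red and PRC1 members in blue. The points of Ezh2, Eed and Suz12 form 1 cloud with a few low cells, while for the genes from Rnf2 to Cbx8 some cells sit at or near 0 beside cells with a level, from 3 cells without a count for Rnf2 to 58 for Cbx8.

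By mean TPM the order was Ezh2, Eed, Suz12, Rnf2, Ezh1, Jarid2, Cbx7, Bmi1, Ring1 and Cbx8, and no gene differed from the next by more than the SD over cells. Within cells the order was loose too. Ezh2 was above Eed in 60 cells and below it in 36, Eed was above Suz12 in 52 and below it in 44, and Ezh1 was above Jarid2 in 51 and below it in 44. The clearest step was that from Suz12 to Rnf2, with Suz12 higher in 71 cells. Cbx7 had a higher mean than Bmi1 and yet was above it in 41 cells and below it in 48. Ends of some genes overlap others, and whether the counting used strand is not given in the sources used here. Cbx7 shares 100 bases with Apobec3, which had a median of 2752 counts, and Rnf2 shares 158 bases with Trmt1l, which had a median of 1122. Both neighbours lie on the opposite strand, so reads in the shared stretch cannot be told apart. Eed shares 408 bases on its own strand with Gm45120, which had at least 10 counts in 24 cells.

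The members also differed in how many cells held them. At a level of 100 counts, chosen after the values were seen, Suz12 was present in 95 of 96 cells, Ezh2 in 94, Eed in 90, Rnf2 in 81, Jarid2 in 76, Ezh1 in 67, Bmi1 in 58, Cbx7 in 49, Ring1 in 45 and Cbx8 in 24. Exact 95% intervals (Clopper-Pearson, for counting error alone) ran from 92.7% to 99.7% for Ezh2, from 59.6% to 78.7% for Ezh1 and from 16.7% to 34.9% for Cbx8. These intervals take the 96 cells as independent, which sisters are not. At least 10 counts in every cell were found for 1 member, Suz12, against 22.7% of the genes tested. The ERCC transcripts, which are present in equal amount in every lysate, give a level to set beside this. The 24 of them whose mean TPM lay in the range of the members reached 100 counts in 12 to 85 cells, with a median of 43. ERCC transcripts at the mean TPM of Cbx8 to Rnf2 reached it in 12 to 52 cells, fewer than Rnf2, Jarid2, Ezh1 and Bmi1 and in the range of Cbx7, Ring1 and Cbx8. At like TPM the 24 ERCC transcripts had fewer counts than the members, with means of 51.2 to 1218 against 199 to 3125, and the part of capture in these numbers was not tested. The 2 cells in which Ezh2 fell below 100 counts were sisters, as described below.

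At the level of RNA, Ezh2 was the main enzyme gene of PRC2 in most cells. Its share of the summed TPM of Ezh1 and Ezh2 had a median of 86.0%, with quartiles of 65.7% and 98.8% and extremes of 0.253% and 100%. Ezh2 was above Ezh1 in 83 cells and below it in 13. Of these 13 cells, 6 were both daughters of 3 pairs and 7 had a sister in which Ezh2 was higher. At 100 counts, 65 cells had RNA of both enzymes, 29 had that of Ezh2 alone and 2 had that of Ezh1 alone.

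A similar division held for the ligases of PRC1. Rnf2 had a median share of 90.1% of the summed TPM of Ring1 and Rnf2, and it was above Ring1 in 78 cells and below it in 18. Of the readers, Cbx7 was more often the higher, and the median share of Cbx8 in their summed TPM was 0. Of the 82 cells in which Cbx7 or Cbx8 was counted, Cbx7 was higher in 56 and Cbx8 in 26, and at 100 counts both were present in 12 cells and neither in 35. Bmi1 shares its place in PRC1 with Pcgf2, and its median share of their summed TPM was 34.4%.

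Sisters were compared after counts had been scaled to the ERCC transcripts, and a pair was taken to differ when the higher daughter had at least 1.5 times the value of the lower, with 1 added to both. All 10 members differed in at least 24 of 48 pairs, as did 79.5% of the genes tested, so this count does not set the members apart. The number of pairs was 24 for Suz12, 26 for Ezh2, 28 for Cbx8, 35 for Eed, 36 for Rnf2, 37 for Ring1 and Cbx7, 40 for Ezh1, 41 for Bmi1 and 44 for Jarid2. The median over the members was 36.5 pairs, beside 33 for all genes tested and 37 for the 7936 genes in the same range of mean counts. With counts scaled to the gene total of each cell instead, the number of members was 8, and the share of all genes was 63.2%.

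Ezh2 and Suz12 were the members with the smallest differences between sisters. The median ratio of the higher to the lower daughter was 1.57 for Ezh2 and 1.52 for Suz12, followed by 1.98 for Eed and 2.34 for Rnf2. It was 4.08 for Jarid2, 5.08 for Cbx8, 6.21 for Cbx7, 7.15 for Ezh1, 7.59 for Bmi1 and 22.9 for Ring1. The 8 ERCC transcripts with a mean TPM between those of Suz12 and Ezh2 differed in 32 to 40 pairs, with median ratios of 2.62 to 40.6. Both genes lay below all 8 of these, and Eed with 35 pairs lay within their range in pairs and below it in ratio. The ERCC transcripts are of other lengths than the genes and had fewer counts at like TPM. None in the members' range of TPM had a mean above 1218 counts, against 2723 for Suz12 and 3125 for Ezh2. The part of length and of counts in this comparison was not tested. The 15 ERCC transcripts between Cbx8 and Rnf2 differed in 15 to 42 pairs, and of the 7 members from Rnf2 downward all but Jarid2 lay within that range.

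**Figure D2:**
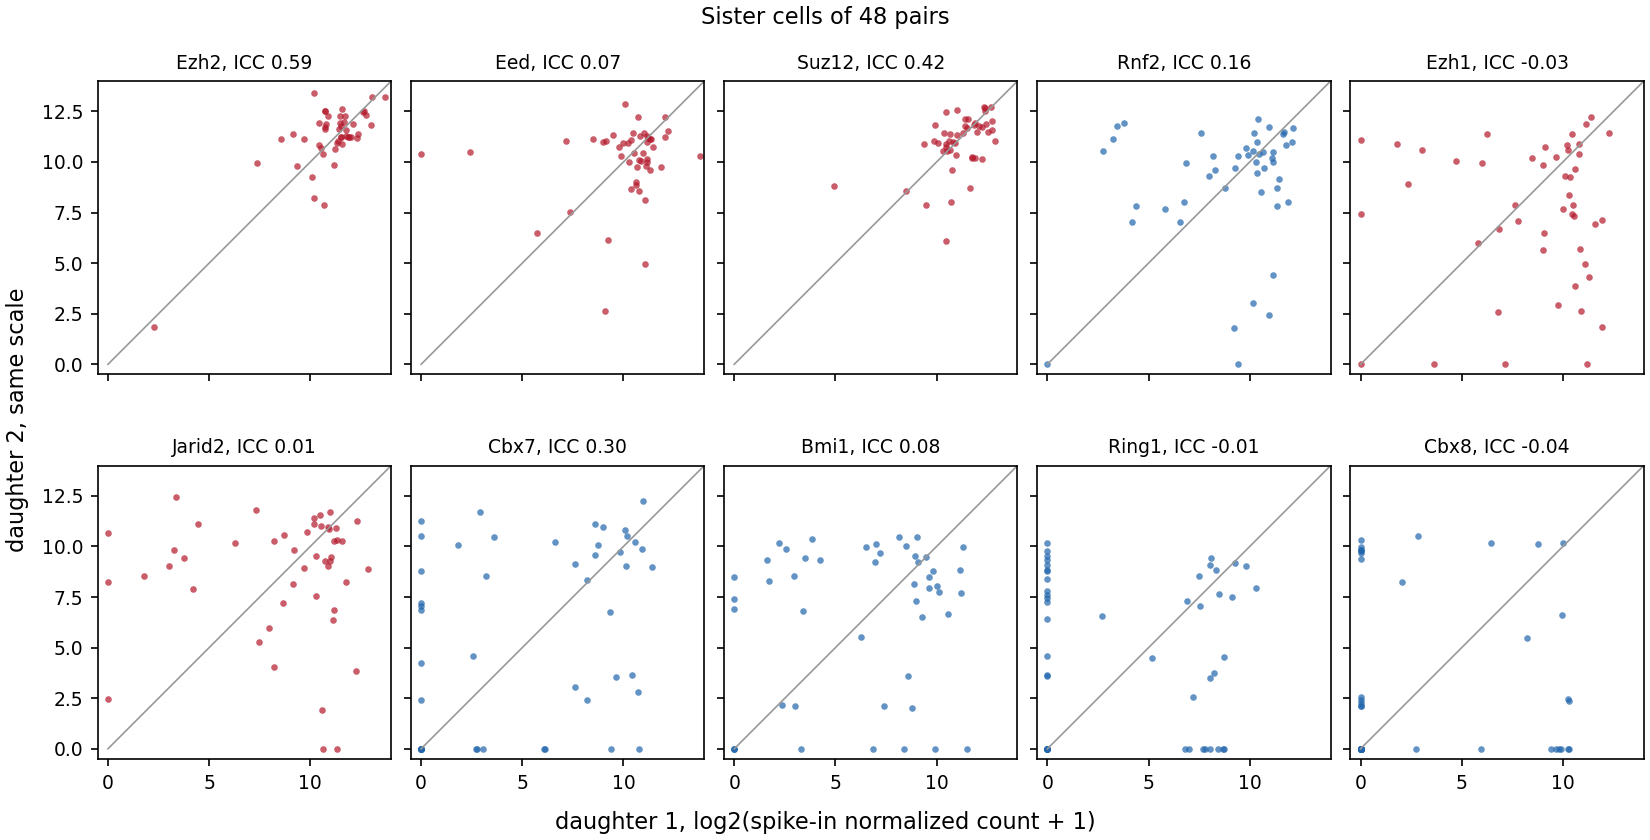
Each point is 1 of 48 pairs, with daughter 1 on the horizontal and daughter 2 on the vertical axis, both as log2(count scaled to ERCC + 1). The line marks equal values, and ICC is the intraclass correlation over pairs. The ICC printed is that of counts scaled to the gene total of each cell, as described below, and not of the scale plotted. On the scale plotted it was 0.77 for Ezh2 and 0.49 for Suz12. Ezh2 and Suz12 lie near the line, with pair 4 alone at the bottom of the Ezh2 panel, while from Ezh1 to Cbx8 many points lie along the axes, where 1 sister had few or no counts.

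The widest sister differences of the low members were between a high count and none. In pair 28 the daughters had 2181 and 0 counts of Ezh1, in pair 33 they had 3561 and 0 of Jarid2 and 1329 and 0 of Bmi1, and in pair 25 they had 0 and 2722 of Cbx7. Eed was at 0 in 1 cell, whose sister in pair 29 had 2037 counts. For the core genes with counts in every cell the extremes were milder, at 794 and 6036 counts of Ezh2 in pair 46 and 1464 and 101 of Suz12 in pair 4. A level of 100 counts in 1 sister alone was seen in 25 pairs for Ring1, 23 for Ezh1, 22 for Bmi1, 20 for Cbx8, 18 for Jarid2, 17 for Cbx7, 13 for Rnf2, 4 for Eed, 1 for Suz12 and 0 for Ezh2. Cbx8 reached it in both sisters in 2 pairs.

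The intraclass correlation (ICC) compares the spread between pairs with that within them, here on log2(CPM + 1), where CPM is the count scaled to the gene total of the cell. It is 1 when sisters are equal and near 0 when they are no more alike than cells of different pairs. It was 0.59 for Ezh2, 0.42 for Suz12, 0.30 for Cbx7, 0.16 for Rnf2, 0.08 for Bmi1, 0.07 for Eed and 0.01 for Jarid2, and slightly below 0 for Ring1, Ezh1 and Cbx8, the lowest being -0.04. The median over members was 0.07, beside 0.11 over all genes tested. Ezh2 was the 1 member with an ICC of at least 0.5, against 4.40% of the genes tested.

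That value of Ezh2 rested on pair 4. Both daughters of pair 4 had 4 counts of Ezh2, while the next lowest cell had 201, and without this pair the ICC of Ezh2 was 0.29. With all pairs, it was 0.46 with a pseudocount of 10 in place of 1, 0.77 with counts scaled to ERCC and 0.71 with the median of ratios over genes. The daughters of pair 4 had 1845 and 2055 counts of Ezh1, 2121 and 4996 of Jarid2, 1314 and 1556 of Rnf2 and 172 and 280 of Eed. Bmi1 was at 0 in both, Cbx7 had 5 and 35 counts, Ring1 113 and 0, and Cbx8 0 and 1355. The gene totals of these cells, 44849003 and 38588945 counts, were above the median. The pair stood apart in other genes too, as daughter 1 had the highest squamous score of all cells, 7.48 against a median of 2.30, and daughter 2 had the lowest basal score, 3.08 against 8.14, and the lowest G2/M score, 2.01 against 5.88. The part of these differences in the Ezh2 counts was not tested. Suz12 kept an ICC of 0.42 without pair 4. The deposited names place the cells in 12 sets of 8, each with 4 whole pairs, and whether the cells of a set were handled together is not given in the sources used here. After values were centred within the sets, which by itself lowers an ICC, that of Ezh2 was 0.43 and that of Suz12 was 0.04. The likeness of sisters in Suz12 thus cannot be told apart from differences between sets. The centred value of Ezh2 includes pair 4, and a centred value without that pair was not computed. It therefore does not show that sisters were alike in Ezh2 beyond pair 4 and the sets.

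Across cells, Ezh2 followed the genes of DNA replication. An S-phase score was taken as the mean log2(CPM + 1) of 43 replication genes, none of them a member, and it ran from 1.77 through a median of 5.56 to 7.34. Spearman's rho of Ezh2 with this score over 96 cells was 0.68 and Pearson's r was 0.70. Without the 2 cells farthest from the median score, r was 0.76. A rho of at least 0.5 was reached by 0.705% of the genes tested, a count of 102 that includes 34 of the 43 genes of the score. Of the 14420 genes outside the score, Ezh2 was 10th from the top, and its rho lay above the median of 0.62 that the genes of the score had with it. The points share the cultures, and sisters share a mother cell, so the 96 cells are not independent.

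No other member reached 0.5 on this scale, although Suz12 had 0.55 when counts were scaled to ERCC. Spearman's rho was 0.45 for Suz12 (r = 0.56), 0.28 for Eed, 0.24 for Cbx7, 0.16 for Rnf2, 0.12 for Bmi1, -0.03 for Cbx8, -0.08 for Ring1, -0.19 for Jarid2 and -0.26 for Ezh1 (r = -0.22). Suz12 was 122nd from the top of the 14420 genes and Ezh1 was 237th from the bottom. The core subunits thus stood at the upper end of the members, and the enzyme of resting cells at the lower end. The share of Ezh2 in the summed TPM of both enzymes was also positively related to the score, with a rho of 0.45 and an r of 0.52.

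**Figure D3:**
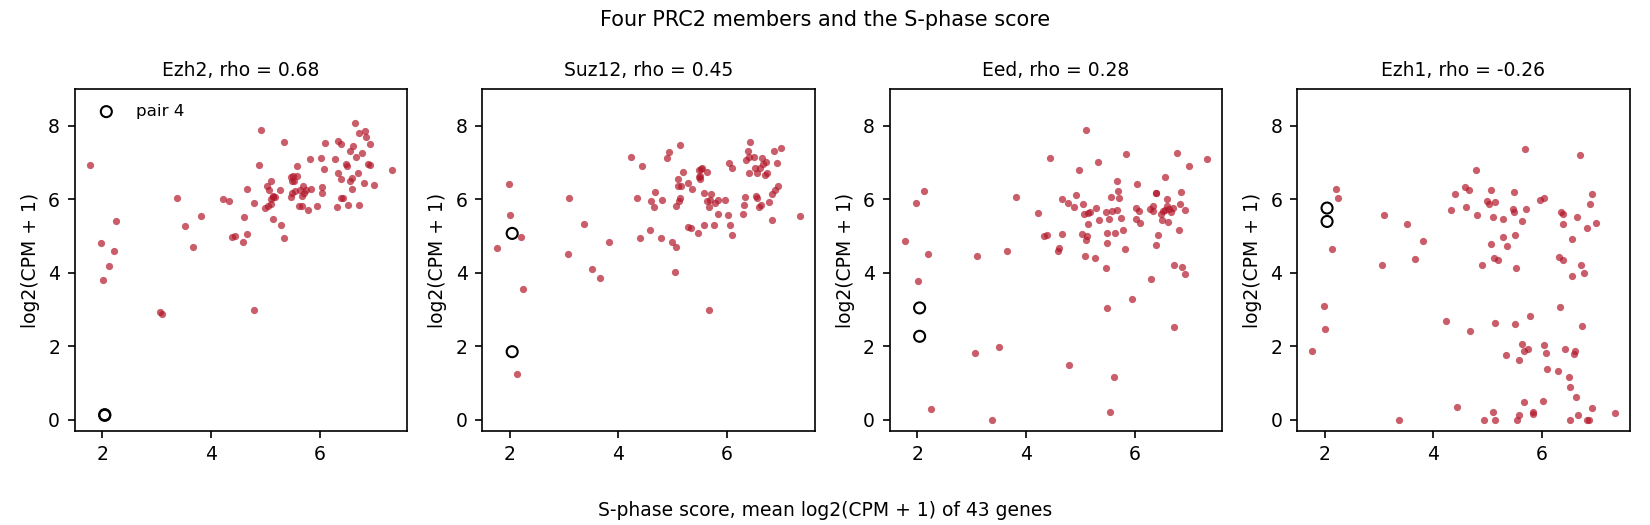
Each point is 1 of 96 cells, with the S-phase score on the horizontal axis and the level of the gene as log2(CPM + 1) on the vertical axis. Open circles mark the daughters of pair 4. Ezh2 climbs with the score (rho = 0.68) and Suz12 does so with more spread (rho = 0.45), while Ezh1 is spread over its range at every score (rho = -0.26).

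A group of 8 cells stood apart at the low end, with scores of up to 2.25, while the next cell had 3.07. They were both daughters of 2 pairs and 1 daughter of 4 others. The median count of Ezh2 was 667 in these cells and 2897.5 in the other 88, that of Suz12 was 898 against 2466 and that of Eed 602 against 1663.5. Ezh1 went the other way, with a median of 1299.5 against 604.5, and so did Jarid2, with 2539.5 against 791.5. Of the PRC1 members, Bmi1 had a median of 2 against 312 and Cbx7 of 4.5 against 139, while Rnf2 had 1435 against 1027.5. The relation of Ezh2 did not come from these cells alone, as rho over the other 88 was 0.65 and r was 0.68, while rho of Suz12 was 0.36. An exception among them was a daughter of pair 14, which had the lowest score of all and 3666 counts of Ezh2, where its sister had 540.

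The relation of Ezh2 with the score had the same sign in every set of libraries, while its strength varied. Spearman's rho within a set of 8 cells was positive in 12 of 12 sets, with values from 0.10 to 0.90 and a median of 0.55. For Suz12 it was positive in 7 of 12 sets, with a median of 0.25. Leaving out each pair in turn moved rho of Ezh2 between 0.66 and 0.71. Over the means of the 48 pairs, rho was 0.76 for Ezh2 and 0.53 for Suz12. Between sisters the relation was weaker, with a rho of 0.33 for the differences in Ezh2 and 0.17 for those in Suz12, each pair entered in both orders. The daughter with the higher score had the higher Ezh2 in 26 pairs and the lower in 22, and for Suz12 these numbers were 30 and 18.

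No member followed the genes of mitosis with a rho of 0.5. The G2/M score, the mean of 54 genes, had a rho of at least 0.5 with 1.14% of the genes tested and with 0 members. The highest value among the members was that of Suz12, at 0.24 (r = 0.34), and the lowest that of Rnf2, at -0.14 (r = -0.12). For Ezh2, rho was 0.16 and r was 0.43, and without the 2 cells farthest from the median score r was 0.35. The S-phase and G2/M scores themselves were related with a rho of 0.12 and an r of 0.50. Mki67, the gene of the proliferation marker Ki67, had a rho of 0.15 with Ezh2, 0.22 with Suz12 and 0.21 with Eed.

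With the scores of differentiation genes too, no member reached 0.5 in either direction. Few genes did so at all. For the squamous score 0.173% of the genes tested reached 0.5 and 0.0484% reached -0.5. For the basal score these shares were 0.0484% and 0, so the absence of members does not set them apart. With the score of 13 squamous genes, rho ran from -0.17 for Bmi1 to 0.10 for Cbx8, and with that of 11 basal genes from -0.15 for Eed and Jarid2 to 0.15 for Suz12. The largest value between sisters was that of Eed with the squamous score, a rho of -0.34, and the daughter with the higher score had the lower Eed in 32 of 48 pairs. Jarid2 had the same split of 32 of 48 pairs, with a rho of -0.19 between sisters. Trp63, which encodes the basal cell factor p63, had a rho of 0.21 with Suz12, 0.24 with Cbx7 and 0.10 with Ezh2. The members had 40 relations with scores in all, and those named here are the extremes.

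Of the 45 correlations between members over 96 cells, 23 were positive, the median rho was 0.02 and none passed 0.5 in either direction. Over all pairs of genes tested the median was 0.01, with 52.7% positive. The highest value was that of Ezh2 with Suz12, 0.41, and the lowest that of Ezh2 with Ezh1, -0.40. With counts scaled to ERCC, Ezh2 with Suz12 passed 0.5, at 0.59, and on the differences between sisters the value was 0.22. Ezh2 and Eed had a rho of 0.31, Eed and Suz12 of 0.10, and Cbx7 had 0.29 with Suz12 and 0.23 with Ezh2. The relation of Ezh2 with Ezh1 was positive in 2 of 12 sets, and its median within sets was -0.25. The ligases Ring1 and Rnf2 had a rho of -0.14 with each other and of -0.13 and 0.18 with Bmi1.

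**Figure D4:**
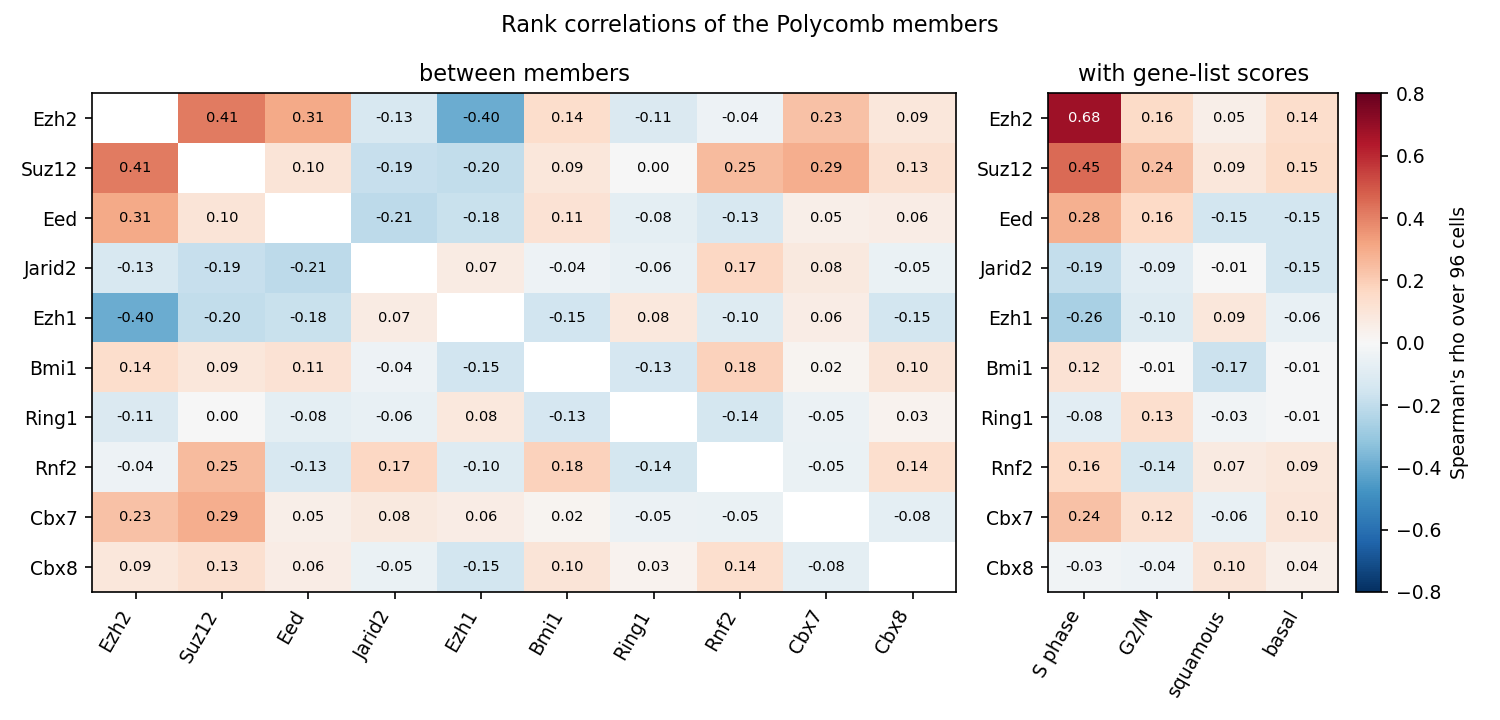
Each square gives Spearman's rho over 96 cells on log2(CPM + 1), between members on the left and between members and 4 gene-list scores on the right, with red for positive and blue for negative values. The darkest square is that of Ezh2 with the S-phase score (0.68), and among members the extremes are Ezh2 with Suz12 (0.41) and Ezh2 with Ezh1 (-0.40).

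The genes whose pattern over the 96 cells was most like a member were named by rank of rho. For Ezh2 they were Rrm2 with 0.68, Clspn with 0.63 and Mcm5 with 0.62, a subunit of ribonucleotide reductase, a replication checkpoint adaptor and a subunit of the replicative helicase, and all 3 belong to the S-phase list. For Suz12 they were Atad2 with 0.59, which also belongs to that list, Slfn9 with 0.49 and Eif4g1 with 0.47. For Eed they were Stmn1, a microtubule regulator, with 0.49, Gm11223 with 0.47 and Snhg15 with 0.44. The best matches of the 24 ERCC transcripts in the members' range of TPM, which come from no cell, reached 0.35 to 0.45 among the same genes. The best matches of the other 7 members lay in that range, from 0.36 for Tef with Jarid2 to 0.43 for Nfatc2ip with Cbx7.

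Other subunits put the members in context. All 8 further genes of PRC2 passed the filter. Among them the histone chaperones Rbbp7, at 226 ± 81.9 TPM, and Rbbp4, at 71.2 ± 29.9, had higher means than Ezh2, Eed and Suz12. Mtf2, which brings PRC2 to unmethylated CpG islands, had 46.1 ± 25.4 TPM and at least 10 counts in all 96 cells, while its paralogs Phf1 and Phf19 reached 10 counts in 22 and 16 cells. Rbbp7 had an ICC of 0.46 and a rho of 0.35 with the S-phase score. None of these 8 genes had an ICC of at least 0.5 or a rho of at least 0.5 with the G2/M score.

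All 21 further genes of PRC1 passed the filter as well, with means from 2.06 to 95.1 TPM. Scmh1 (95.1 ± 68.3) and the polyhomeotic gene Phc2 (68.2 ± 55.1) led them, with higher means than every member of PRC1. Among genes of the variant complexes, Kdm2b, which binds unmethylated CpG islands, had the highest rho with the S-phase score at 0.41, followed by L3mbtl2 at 0.33 and E2f6 at 0.29. Among CBX readers outside the members, Cbx6 was counted at 10 or more in all 96 cells with 22.0 ± 14.3 TPM, while Cbx2 reached this in 49 cells. The 6 genes of opposing enzymes, among them the H3K27 demethylases Kdm6a (9.22 ± 11.4 TPM) and Kdm6b (10.7 ± 8.81 TPM), all passed the filter, and Usp16, a deubiquitinase of H2A, was highest at 33.9 ± 19.3 TPM. None of the 21 genes or the 6 had an ICC or a rho with the G2/M score of at least 0.5.

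**Figure D5:**
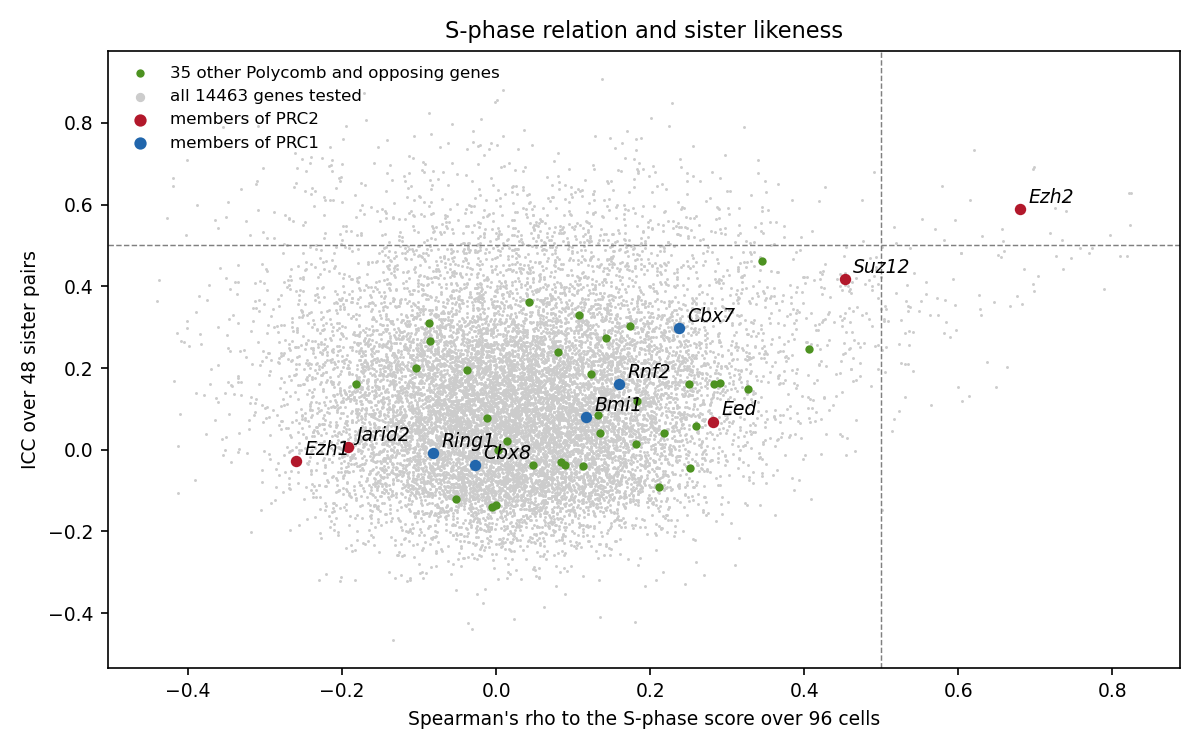
Each point is a gene, with its rho to the S-phase score over 96 cells on the horizontal axis and its ICC over 48 pairs on the vertical axis. Grey points are the 14463 genes tested, green points 35 other Polycomb and opposing genes, red and blue points the members, and dashed lines mark 0.5. Ezh2 is the 1 member in the upper right field, Suz12 lies just outside it, and the rest lie among the other genes.

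Classical Polycomb targets had few or no counts, with the exception of Cdkn2b. Of 39 Hox genes, 30 had no count in any of the 96 cells, which allows for each gene a share of up to 3.12% of cells with a count. Of all 55487 genes, 32924 had a count in at least 1 cell, against 9 of the 39 Hox genes. Genes without a count were thus not particular to the Hox clusters, but they made up a larger part of them. Hoxb13 and Hoxb3 reached 10 counts, each in 1 cell, with 296 and 15 counts, and Hoxb2 had at most 1 count in 16 cells. At the INK4 locus the 2 inhibitors differed, as Cdkn2a reached 10 counts in 4 cells and Cdkn2b in 64, with a median of 398 counts and 24.7 ± 30.6 TPM. Spearman's rho of the members with Cdkn2b ran from -0.15 for Bmi1 to 0.14 for Ring1.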

How the data were processed

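The RNA of 96 single cells, captured with oligo-dT beads and prepared with the G&T-seq protocol after ERCC transcripts had been added, was sequenced. Per the labels and the study's methods, the authors used Trimmomatic 0.39, STAR 2.7.11a, StringTie 2.2.1 and the genome build GRCm38, and deposited whole-number read counts per gene and cell without normalization. They also deposited TPM values per gene and cell, whose scaling includes the ERCC transcripts.

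Python 3.11.15, numpy 2.4.6, scipy 1.17.1 and pandas 2.3.3 were used, with matplotlib 3.10.9 for figures. Counts were scaled by a median-of-ratios size factor (22 ERCC transcripts, those of 92 with counts in every cell) for ratios between sisters (pseudocount 1, cutoff 1.5), and to CPM (the gene total of the cell) for ICC, correlations and scores. Levels between genes used TPM. Genes with at least 10 counts in at least 10% of cells were kept. The named genes are the 10 members, the listed Polycomb genes, the INK4 locus, the Hox genes counted in the most cells, the 3 genes most like each member (shown for the 3 core members and by range otherwise), Mki67 and Trp63. Hoxb13 and Hoxb3 were named after their values were seen, as were the overlapping genes. The 4 gene lists behind the scores and the members were chosen with earlier results of these data known. Sister pairs come from the labels, which give 1 group and no mouse, so no test was run and no p-value computed. Intervals are Clopper-Pearson 95%, and the limit beside a count of 0 is 3 of the total. In simulated counts for 14463 genes, 100% of 200 genes tied to a score reached a rho of 0.5 and 98.5% of 200 genes shared by sisters reached an ICC of 0.5. The simulated ties were strong and the counts had no excess of zeros, so these shares do not carry over to weaker ties or to the low members. Alternatives in scaling, pseudocount, filter, measure and sets of libraries were tried. The S-phase count, the values without pair 4 or without the cells of low score, the level of 100 counts and the ranges of ERCC transcripts were added after the data were seen. Proteins were not analysed here.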

Additional observations from a re-analysis of the deposited data

How the results depend on the processing

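The members with a count in every cell numbered 2, but 1 at a level of 10 counts and 0 at a TPM of 1. The median ICC of the members was 0.07, and -0.11 after centring within the sets of libraries, which by construction lowers it. The count of members with a rho of at least 0.5 to the S-phase score was 1, and 2 with the spike-in scaling, with Pearson's r and over pair means, Suz12 being the added gene, and 0 on differences between sisters. Scaled to ERCC, rho with this score was 0.44 for Eed and -0.16 for Ezh1, and Eed with Suz12 had 0.30. The count for the G2/M score was 0 under every alternative tried, as for Mki67 alone. The members that differed between sisters in at least 24 pairs numbered 7 to 10 over the alternatives. The 7 were found at a cutoff of 2, where the share of all genes was 61.0%. At the cutoff of 1.5 the share of all genes was 79.5%, or 37.7% without the filter on low counts. Of the 243 alternative values, 7 for the main results and 43 for the others moved past a set tolerance. A reversal could be called only for the rho of Ezh2 with the S-phase score and for its ICC, and none was found. Signs of weaker values did change, as rho of Eed with the S-phase score was 0.28 and -0.03 on differences between sisters. The cause of these shifts was not tested. All cells belong to 1 group, so no groups could be paired, and pairs of sisters enter through the values within pairs.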
